A study of Mus musculus with 6 samples.

Results

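The genes described here are 10 enzymes and transporters of the antioxidant defence of mouse liver: Slc7a11, Gclc, Gclm, Gsr, Txnrd1, Srxn1, Prdx1, Nqo1, Hmox1 and Cat. They were chosen by gene symbol, most of them as known targets of the transcription factor NRF2, and each was read by 1 probe set, so all 10 were found among the 16331 gene probe sets of the array. Liver RNA came from 3 mouse samples labelled wildtype (arrays WT 426, WT 428 and WT 430) and 3 labelled deficient in Ugcg (arrays KO 427, KO 429 and KO 431, called knockout after their titles). Ugcg encodes UDP-glucose ceramide glucosyltransferase, which starts the synthesis of glucosylceramide-based glycosphingolipids, and the series concerns their loss from the liver. The kind of allele, the driver of the deletion, and the strain, age and sex of the mice were not stated in the labels. Nothing in the labels ties each sample to a mouse of its own, and p-values therefore reflect sample-to-sample spread that could be technical.

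NRF2, encoded by Nfe2l2, is held in the cytoplasm by Keap1, which hands it to a Cul3 and Rbx1 ubiquitin ligase for breakdown. Electrophiles and oxidants modify Keap1, and NRF2 then pairs with small Maf proteins on antioxidant response elements and raises genes for glutathione synthesis, the thioredoxin system, quinone reduction and heme breakdown. Hepatocytes rely on this programme to handle drugs, bile acids and the peroxides made by mitochondria, peroxisomes and cytochromes P450.

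The core of the antioxidant response element, TGACNNNGC, was looked for on both strands in RefSeq promoter windows of assembly GRCm38.p6, each running from 250 bases before to 50 bases after a transcription start. A window was found for 7 of the 10 genes, and Gclc, Gsr and Hmox1 were not matched. The core was in a window of 4 of these 7 genes, against 3781 of 27025 genes with a window, or 14.0%. The stretches below show it, on the gene's own strand with the match in capitals. All 4 matches read as the reverse complement, GCNNNGTCA.
Gclm: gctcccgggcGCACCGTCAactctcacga
Txnrd1: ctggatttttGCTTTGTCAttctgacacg
Srxn1: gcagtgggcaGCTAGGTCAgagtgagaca
Prdx1: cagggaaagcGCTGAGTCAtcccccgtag

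The Gclm stretch lies on the plus strand at chr3:122245413-122245441, with the core 134 to 126 bases before the start. That of Txnrd1 (chr10:82859104-82859132, plus strand) has the core 92 to 84 bases before the second of 3 annotated starts. In Prdx1 (chr4:116685456-116685484, plus strand) the core stands 133 to 125 bases before the start, and in Srxn1 (chr2:152105542-152105570, plus strand) 28 to 36 bases after it. The windows of Nqo1, Slc7a11 and Cat hold no such letters, which says nothing of sites elsewhere.

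Whole-array properties were as follows. Values are log2 expression and all differences are knockout minus wildtype on that scale. Array medians lay between 6.79 and 6.81, and the median difference over all probe sets was 0.0059. The Ugcg probe set itself read 6.81, 6.85 and 6.87 on the wildtype and 7.12, 6.70 and 6.68 on the knockout arrays (limma adjusted p = 0.998); the labels do not place its probes relative to the deleted part, so it does not check the genotypes. Hepatocyte markers were measured for 8 of 9 genes, with a mean level between 13.4 and 13.5 on every array. Several arrays stood apart in markers of other cells. The mean of 10 exocrine pancreas genes was 9.49 in WT 430 and 6.61 to 6.81 elsewhere. In KO 431 the means of 4 adipose genes (7.23 against 6.43 to 6.61 elsewhere) and of 4 neutrophil genes (6.98 against 6.35 to 6.57) were highest. Among the neutrophil genes this held for S100a8 (7.76) and S100a9 (7.59), whereas Ngp was lowest in KO 431 (6.28) and Mpo highest in WT 430 (6.38). The mean of 10 Kupffer cell and macrophage genes was lowest in KO 431 (8.32 against 8.55 to 8.87). The mean of 6 cholangiocyte genes was 6.63 in KO 429 and 6.19 to 6.32 elsewhere. Of these genes, Krt19 (7.60), Epcam (6.86) and Cldn7 (6.51) were highest in KO 429. By contrast, Krt7 (6.71) and Sox9 (6.77) were highest in WT 428, and Cftr (5.69) in KO 427. In bulk tissue, fewer cells of a type and less RNA per cell cannot be told apart.

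The comparison of genotypes asked whether antioxidant genes differed by labelled genotype. None of the 10 genes passed an adjusted p of 0.05 in the limma fit over all probe sets, where 4 of 16331, or 0.0245%, passed. At an unadjusted p under 0.05 there were 0 of the 10, against 815 or 4.99% of all probe sets. In the knockout arrays 5 genes had a higher mean and 5 a lower mean, with differences from -0.21 (Nqo1) to 0.13 (Srxn1) and a median of -0.029. The adjusted p of the 10 genes ran from 0.982 to 0.996. Each of the 10 intervals of 95% included 0 and lay within 1.5-fold in either direction; in fold units their outermost bounds were 0.706, for Nqo1, and 1.24, for Srxn1. With 3 arrays a group, changes inside a gene's own interval were not resolved, and the intervals of other genes were narrower, such as 0.907 to 1.13 for Txnrd1.

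**Figure D1:**
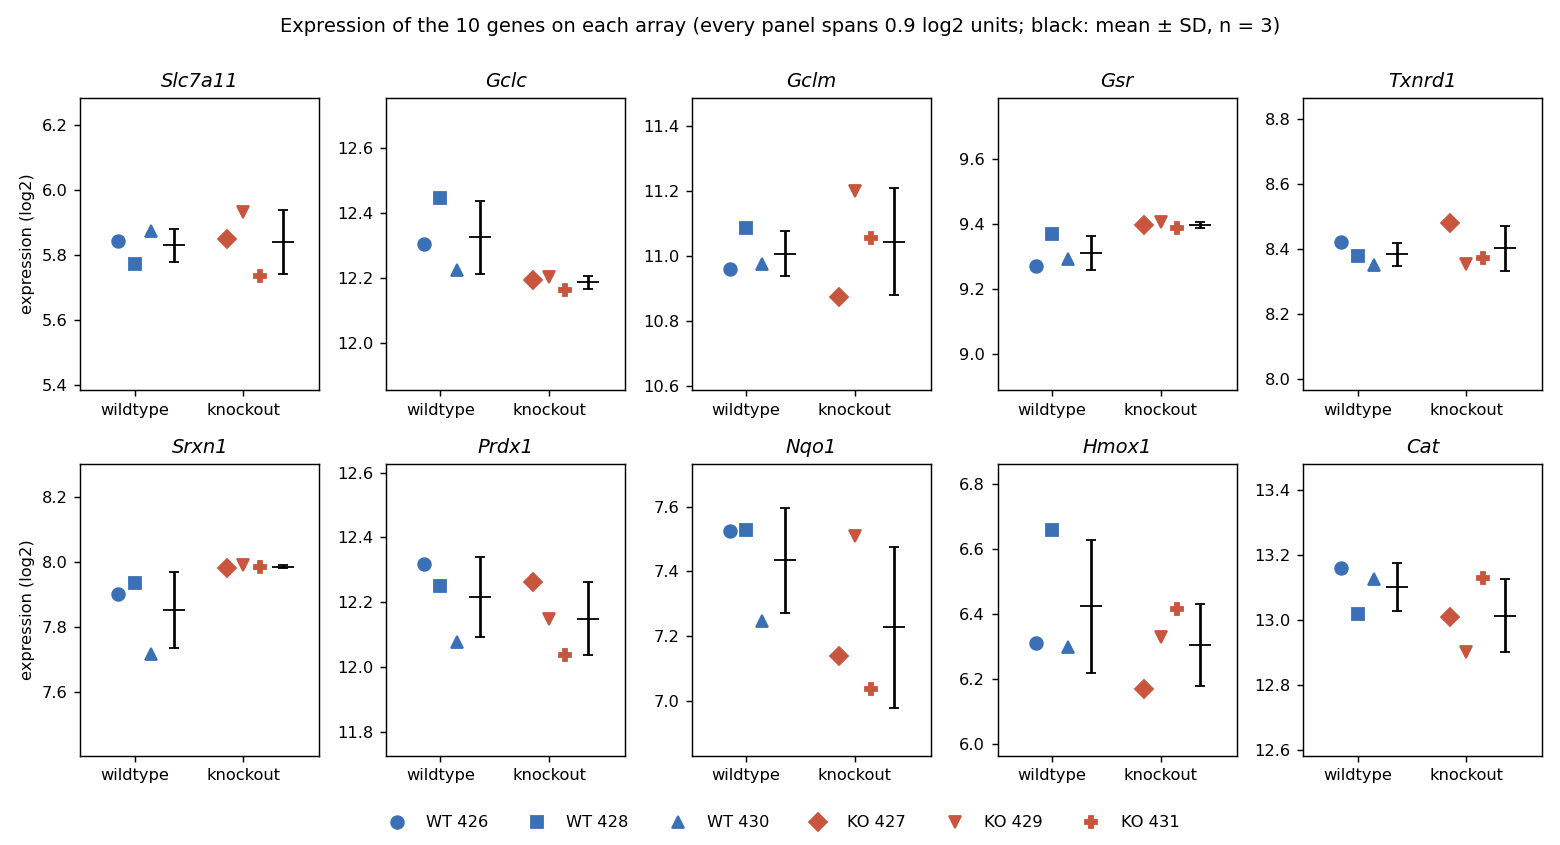
Log2 expression of each gene on the 3 wildtype (blue) and 3 knockout (red) arrays, 1 point per array, with the mean ± SD of each group (n = 3) in black. Every panel spans the same 0.9 log2 units, and the groups lie apart for Gclc, Gsr and Srxn1 and overlap in the other panels.

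The groups did not overlap for 3 of the 10 genes, Gclc, Gsr and Srxn1, which is to be read against 1563 probe sets, or 9.57%, over the whole array. The same 3 genes did not overlap after quantile normalization or median centring, with 9.93% of all probe sets after each. Without WT 430 and KO 427, which the first principal component of all probe sets set apart (-14.5 and -11.9, against 3.69 to 9.44 for the other arrays), the count was 6 of 10 against 34.6% of all probe sets. The signs also differed among the 3 genes, with Gclc lower and Gsr and Srxn1 higher in the knockout arrays.

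Glutathione is made from cysteine, glutamate and glycine, and 4 of the genes serve its supply. Slc7a11, the cystine importer xCT, read 5.84, 5.77 and 5.87 on WT 426, WT 428 and WT 430 and 5.85, 5.93 and 5.73 on KO 427, KO 429 and KO 431. Both the highest and the lowest value were knockout arrays, and the wildtype values lay between them. The difference was 0.0091 (SE 0.077, limma adjusted p = 0.996). Slc7a11 was 1 of 2 genes, with Hmox1, whose mean lay at or below the 40th percentile of all probe sets, so a filter on low values would leave 8 of the 10. Its partner chain Slc3a2, which carries the importer to the cell surface, differed by -0.015 (limma adjusted p = 0.996).

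Gclc, the catalytic subunit of glutamate-cysteine ligase, which sets the pace of glutathione synthesis, read 12.30, 12.45 and 12.22 on the wildtype arrays and 12.19, 12.20 and 12.16 on the knockout arrays. The knockout values lay close together, all below the lowest wildtype value by at least 0.023. The means were 12.32 ± 0.11 and 12.19 ± 0.02 (SD, n = 3 each), a difference of -0.14 (SE 0.077, 95% interval -0.31 to 0.036) that did not pass (limma adjusted p = 0.982). It was -0.078 without WT 428, the highest array, and -0.19 without WT 430.

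Gclm, the modifier subunit that makes the ligase more active, did not share that ordering. It read 10.96, 11.09 and 10.97 on the wildtype arrays and 10.87, 11.20 and 11.06 on the knockout arrays, so the lowest value was KO 427 and the highest KO 429. The difference was 0.036 (SE 0.094, limma adjusted p = 0.996), and it turned to -0.043 without KO 429. The interval ran from -0.18 to 0.25.

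Gsr, glutathione reductase, which restores reduced glutathione with NADPH, read 9.27, 9.37 and 9.29 on the wildtype and 9.40, 9.41 and 9.39 on the knockout arrays. All knockout values lay above all wildtype values, and the gap between the nearest arrays was 0.018. Gsr had the smallest residual SD of the 10 genes (0.038, at the 3.4th percentile of all probe sets). The difference of 0.086 (SE 0.067, interval -0.065 to 0.24, limma adjusted p = 0.982) did not pass. limma moves each gene's variance towards that of the whole array, so this standard error is larger than the gene's own spread alone would give.

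The thioredoxin branch passes electrons from NADPH to peroxiredoxins. Txnrd1, the cytosolic thioredoxin reductase, read 8.42, 8.38 and 8.35 on the wildtype and 8.48, 8.35 and 8.37 on the knockout arrays. The groups overlapped across a range of 0.13 in all. The difference was 0.018 (SE 0.070, limma adjusted p = 0.996), and it was -0.021 without KO 427, the highest array.

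Srxn1, sulfiredoxin, which repairs overoxidised peroxiredoxins, had the highest positive difference of the 10 genes. It read 7.90, 7.94 and 7.72 on the wildtype arrays and 7.98, 7.99 and 7.99 on the knockout arrays. The knockout arrays were within 0.0093 of each other, and all lay above the highest wildtype array by at least 0.045. The means were 7.85 ± 0.12 and 7.99 ± 0.0047 (SD, n = 3 each), a 1.10-fold difference (0.13 in log2, SE 0.078, interval -0.043 to 0.31, limma adjusted p = 0.982). WT 430, the array with pancreatic transcripts, was the lowest; without it the difference was 0.067, with the groups still apart, and the part of those transcripts in the result was not tested.

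Prdx1, an abundant cytosolic peroxiredoxin that reduces hydrogen peroxide, read 12.32, 12.25 and 12.08 on the wildtype and 12.26, 12.15 and 12.04 on the knockout arrays. Both groups covered much the same range, with WT 426 highest and KO 431 lowest. The difference was -0.066 (SE 0.091, limma adjusted p = 0.987), running from -0.14 without WT 430 to -0.010 without KO 431.

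Nqo1, the quinone reductase often used as a readout of NRF2 activity, had the most negative difference. It read 7.53, 7.53 and 7.25 on the wildtype arrays and 7.14, 7.51 and 7.04 on the knockout arrays. KO 427 and KO 431 lay below every wildtype array, whereas KO 429 was level with WT 426 and WT 428. The means were 7.43 ± 0.16 and 7.23 ± 0.25 (SD, n = 3 each), a difference of -0.21 (SE 0.13, interval -0.50 to 0.091, limma adjusted p = 0.982). Over all probe sets 6.24% had a larger difference in either direction. Nqo1 also varied most within groups among the 10 genes, with a residual SD of 0.21 at the 92.3rd percentile of all probe sets.

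The Nqo1 difference was -0.35 without KO 429, with an unadjusted p under 0.05 but an adjusted p of 0.997 in the limma fit, and -0.11 without KO 431. In the knockout group the Kupffer cell and macrophage means stood in the same order as Nqo1. They were 8.87 in KO 429, 8.55 in KO 427 and 8.32 in KO 431. In the same array order, the cholangiocyte means (6.63, 6.29 and 6.24) and the stellate cell means (8.53, 8.48 and 8.40) also fell. The liver endothelium means (8.11, 8.17 and 8.04) did not follow that order. The part of any of these cells in the result was not tested. The wildtype macrophage means were 8.84 in WT 426, 8.64 in WT 428 and 8.62 in WT 430. In that array order the cholangiocyte means were 6.19, 6.32 and 6.22, and the stellate cell means 8.36, 8.63 and 8.24.

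Hmox1, heme oxygenase 1, which opens the heme ring and in liver is made largely by macrophages that clear red cells, read 6.31, 6.66 and 6.30 on the wildtype and 6.17, 6.33 and 6.42 on the knockout arrays. WT 428 stood above the rest, and the other 5 arrays overlapped. The difference was -0.12 (SE 0.11, interval -0.37 to 0.14, limma adjusted p = 0.984), and it was -0.0015 without WT 428. All 10 macrophage genes had a lower knockout mean, with a median difference of -0.11, and none of them passed. Their mean level was highest in KO 429 (8.87) and lowest in KO 431 (8.32), and without KO 431 there were 7 higher and 3 lower, with a median of 0.032. The macrophage means and Hmox1 stood in different array orders within each group. KO 431, lowest in the macrophage mean, had the highest knockout Hmox1 value (6.42). WT 428, highest in Hmox1 (6.66), had a macrophage mean of 8.64, below the 8.84 of WT 426 (Hmox1 6.31). In both measures WT 430 was the lowest wildtype array and KO 427 lay below KO 429. Hmox1, like Slc7a11, would be left out by a filter on low values. The part of macrophage RNA in the Hmox1 values was not tested.

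Cat, the peroxisomal catalase that splits hydrogen peroxide without NADPH, read 13.16, 13.02 and 13.13 on the wildtype and 13.01, 12.90 and 13.13 on the knockout arrays. KO 429 was the lowest and the groups overlapped. The difference was -0.088 (SE 0.082, interval -0.27 to 0.099, limma adjusted p = 0.984); it was -0.033 without KO 429 and -0.15 without KO 431.

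**Figure D2:**
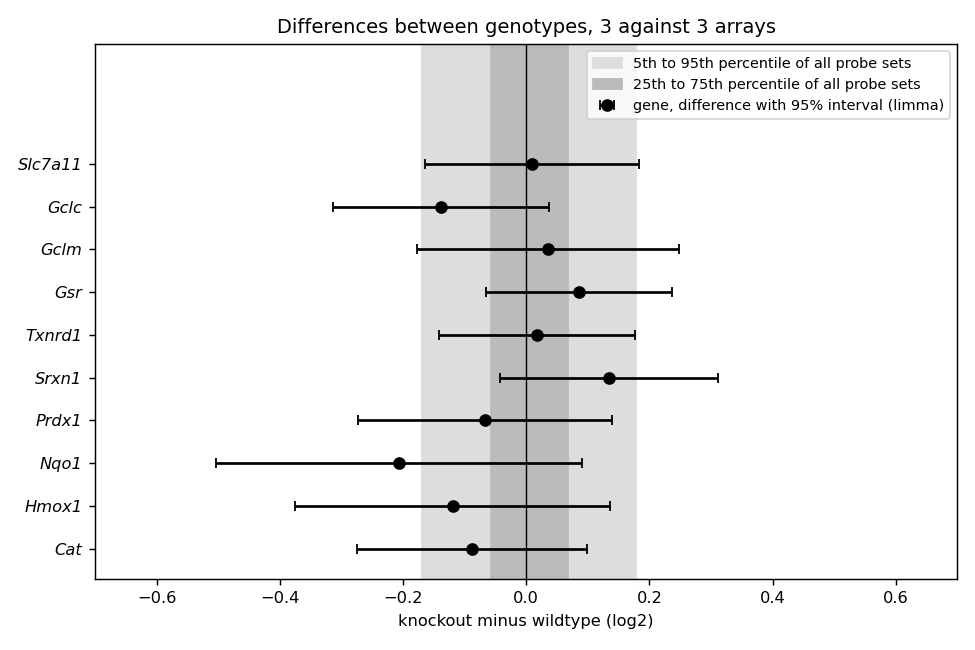
Knockout minus wildtype differences in log2 expression of the 10 genes, with 95% intervals from limma (3 against 3 arrays); the shaded bands span the 25th to 75th and the 5th to 95th percentile of the differences of all 16331 probe sets. Every interval crosses 0, and Nqo1, at -0.21, is the gene outside the wider band, which ends at -0.17 and 0.18.

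Seen by array, the highest value of a gene was on a wildtype array for 5 of the 10 genes and on a knockout array for 5, and the lowest value for 3 and 7. KO 429, the array with the highest cholangiocyte mean (6.63) and the highest macrophage mean (8.87), was the highest for 4 of the 10 genes. For Srxn1 it was nearly level with KO 431 (7.990 against 7.986) and for Gsr with KO 427 (9.406 against 9.396). For Cat it was the lowest. WT 428 was the highest for 3, whereas KO 431 was the lowest for 4. The part of the cell markers in this was not tested. Relative to the wildtype mean of each gene, the median over the 10 genes was 0.069 in WT 428 and -0.066 in WT 430, and the knockout arrays, from -0.037 to 0.022, lay between these. With KO 431 left out, the median difference over the 10 genes was 0.0097 in place of -0.029.

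**Figure D3:**
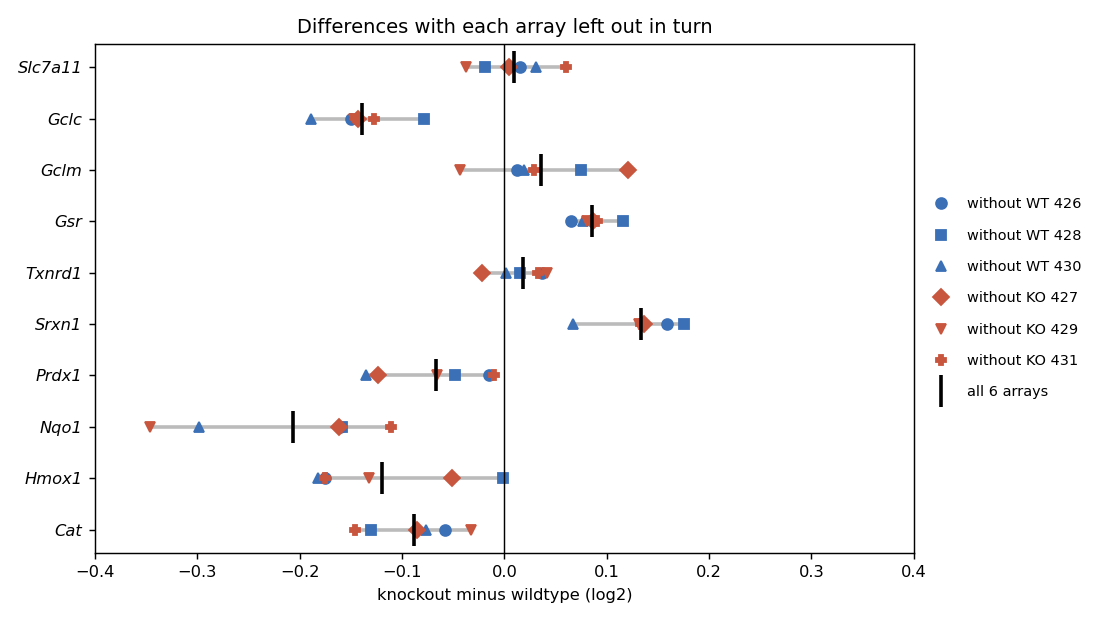
Knockout minus wildtype difference of each gene in log2 with all 6 arrays (black bar) and with each array left out in turn (blue, a wildtype array left out; red, a knockout array left out). The signs of Slc7a11, Gclm and Txnrd1 turn when 1 array is left out, and Nqo1 has the longest span, from -0.35 to -0.11.

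The regulators of the pathway were measured in full, with 3 of 10 higher and 7 lower in the knockout arrays and 0 past the adjusted threshold. Nfe2l2, which encodes NRF2 itself, read 9.47, 9.23 and 9.13 on the wildtype and 9.55, 9.38 and 9.34 on the knockout arrays, a difference of 0.14 (limma adjusted p = 0.982) with overlapping groups. It was 0.24 without WT 426, 0.068 without WT 430, 0.076 without KO 427 and 0.0029 without WT 430 and KO 427. Its inhibitor Keap1 differed by 0.049 (limma adjusted p = 0.988), and by -0.0052 without KO 431. Rbx1, the ring subunit of the ligase that Keap1 recruits, differed by 0.12 (0.063 without WT 426 and 0.19 without WT 430). The smallest p-values of the list belonged to a partner and a competitor of NRF2 on the response element. Mafg, a small Maf protein, read 8.75, 8.65 and 8.42 on the wildtype and 8.34, 8.39 and 8.35 on the knockout arrays (difference -0.24, SE 0.092, unadjusted p = 0.0259 and adjusted p = 0.952 in limma), with no overlap. Bach1, a repressor that occupies the same elements until heme displaces it, differed by -0.28 (SE 0.11, unadjusted p = 0.0354 and adjusted p = 0.981 in limma), with overlapping groups.

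Of the other NRF2 targets, 21 of 28 were measured; 8 had a higher and 13 a lower knockout mean, with a median of -0.038 and 0 past the threshold. The carbonyl reductase gene Cbr3 read 6.46, 6.60 and 6.46 on the wildtype and 6.71, 6.94 and 6.60 on the knockout arrays, a difference of 0.25 (unadjusted p = 0.0324, adjusted p = 0.960 in limma). The groups did not overlap, but the nearest arrays, WT 428 and KO 431, both read 6.60, and without KO 429 the difference was 0.15. Ephx1, the microsomal epoxide hydrolase, differed by -0.13 and the glutathione transferase gene Gsta2 by -0.16 (limma adjusted p = 0.982 for each). Without KO 427 these were -0.077 and -0.063, and Gsta2 was -0.24 without WT 430.

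Antioxidant enzymes outside the 10 genes were measured for 20 of 23 listed, with 11 higher and 9 lower, a median of 0.0041 and 0 past the threshold. Selenop, the selenium carrier that hepatocytes secrete, differed by -0.16, the peroxiredoxin gene Prdx4 by -0.19 and the cytosolic superoxide dismutase gene Sod1 by -0.12 (limma adjusted p = 0.982 for each). The Prdx4 difference was -0.079 without KO 429 and -0.31 without KO 427, and that of Sod1 was -0.059 without KO 427 and -0.18 without KO 431. In none of the 20 was the unadjusted p under 0.05.

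Glutathione supply and turnover had 8 of 11 genes measured, 4 higher and 4 lower, with a median of -0.0024. Chac1, which degrades glutathione inside cells, had the most negative difference of all these lists: it read 8.01, 7.99 and 7.53 on the wildtype and 7.23, 7.20 and 7.08 on the knockout arrays, all knockout values lying below all wildtype values. The difference of -0.67 (SE 0.13) did not pass with all arrays (limma adjusted p = 0.434). With 1 array left out it ran from -0.83 without WT 430, the lowest wildtype array, to -0.59 without WT 426. It passed without WT 430 (limma adjusted p = 0.0256) and did not pass with any other single array left out. Its relative Chac2 differed by -0.18, cystathionine beta-synthase Cbs, an enzyme of cysteine synthesis, by 0.14, and glutathione synthetase Gss, which completes the tripeptide, by 0.12; none passed. With 1 array left out, Chac2 ran from -0.27 without KO 431 to -0.073 without KO 429, Cbs from 0.092 without WT 428 to 0.23 without WT 426, and Gss from 0.036 without WT 426 to 0.16 without WT 430.

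Chac1 and Slc7a11 are also targets of ATF4, the transcription factor of the amino acid and endoplasmic reticulum stress response. In a list of 10 ATF4 targets, which holds Chac1 but not Slc7a11, 6 genes were higher and 4 lower, with a median of 0.073. Asparagine synthetase Asns (1.17), Ddit3 (0.32) and Sesn2 (0.15) had positive differences beside the negative one of Chac1. None passed (limma adjusted p of 0.951 for Asns and Ddit3 and 0.982 for Sesn2). The Asns groups overlapped, with 7.76 in WT 426 and 7.53 in KO 429. With 1 array left out its difference ran from 0.88 without WT 428 to 1.54 without KO 429. Of the 10 genes of this list, 2 higher and 1 lower had an unadjusted limma p under 0.05, against 4.99% of all probe sets. Groups did not overlap for 2 higher genes and 1 lower gene, against 9.57% of all probe sets. The list was chosen with earlier results of these data known, so these counts cannot show an excess over all probe sets.

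Over the 59 measured genes of the 4 lists around the 10 genes, without the ATF4 list, 4 had an unadjusted p under 0.05, or 6.78% against 4.99% of all probe sets, and 6 had groups that did not overlap, or 10.2% against 9.57%. None of the 59 passed the adjusted threshold. Of the 59, 26 were higher and 33 lower, with a median of -0.021.

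**Figure D4:**
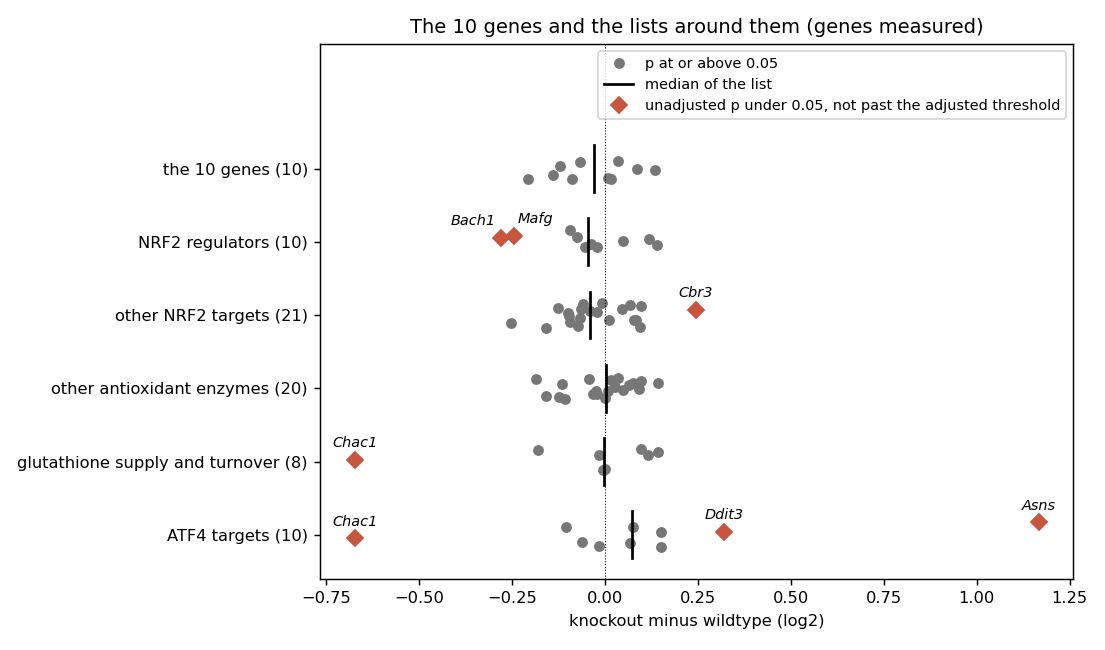
Knockout minus wildtype differences in log2 for the 10 genes and the lists around them, 1 point per gene with the number measured in brackets; black bars are list medians, and red diamonds mark genes with an unadjusted limma p under 0.05. The list medians lie between -0.046 and 0.073, and the genes farthest from 0 are Chac1 at -0.67 and Asns at 1.17.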

How the data were processed

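RNA of 6 mouse liver samples was made into biotinylated cRNA by the Affymetrix protocol, per the labels. Values in the deposited table were taken as log2 expression from their range, 5.38 to 14.69. Background correction, normalization, summarisation and software: not given in the sources used here. No detection calls were used. Of 16395 rows, 64 control rows were left out; the others are each named by 1 Entrez gene number, and 15644 carry a symbol.

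Groups were taken from the sample titles. The genotypes were compared in limma 3.58.1 under R 4.3.3 (lmFit, then eBayes; two-sided), and p-values were adjusted by Benjamini-Hochberg across the 16331 probe sets; the threshold was an adjusted p under 0.05. Lists were described by counts and medians, without a test. The fit was tested on simulated data. Figures were drawn with matplotlib 3.10.9.

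The 10 genes and the lists were chosen with earlier results of these data known. Named beside them were Nfe2l2, Keap1, Slc3a2, Chac1 and, in each list, up to 3 further genes with the smallest p. Alternatives were quantile normalization, median centring, array weights, robust variance with an intensity trend, a filter on means at the 40th percentile, an adjusted p under 0.10, and leaving out each array, or WT 430 with KO 427; those for non-overlapping groups and for the macrophage list were added after the data were seen.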

Additional observations from a re-analysis of the deposited data

How the results depend on the processing

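None of the 10 genes passed in limma under any of the 12 refits or at an adjusted p under 0.10; the smallest adjusted p among 118 values was 0.720. Of these values 113 kept their sign. The 5 that turned were Slc7a11 without WT 428 (-0.019) or KO 429 (-0.038), Gclm without KO 429 (-0.043), and Txnrd1 without KO 427 (-0.021) or without WT 430 and KO 427 (-0.038). With 1 array left out these genes ran from -0.038 to 0.061, -0.043 to 0.12 and -0.021 to 0.042. The median over the 10 genes, -0.029, ran from -0.040 to 0.0097 with 1 array left out, turning without KO 431. The count of non-overlapping genes, 3, was 3 to 4 with 1 array left out (17.2% to 22.2% of all probe sets, against 9.57% with all arrays) and 6 without WT 430 and KO 427 (34.6%); fewer arrays make separation easier.

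Over all probe sets, the 4 past the threshold became 8 with array weights, 8 without WT 430 and KO 427, 8 at an adjusted p under 0.10, and 0 to 4 with 1 array left out (584 to 1135 at an unadjusted p under 0.05). The cause was not tested. Of 19 other named genes, Keap1 turned without KO 431 (-0.0052, against 0.084 without WT 428). Slc3a2 turned without KO 429 (0.0059) or KO 431 (0.0049, against -0.056 without KO 427). Chac1 passed without WT 430 (-0.83) and without WT 430 and KO 427 (-0.86), but not, for example, without WT 426 (-0.59).

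The list medians near 0 turned too. That of other antioxidant enzymes was -0.012 after quantile normalization, -0.018 with array weights, -0.030 without WT 430, -0.0021 without KO 429 and -0.028 without WT 430 and KO 427. That of glutathione supply was 0.0044 after quantile normalization, 0.0074 with array weights, 0.0049 without WT 426, 0.0094 without WT 428, 0.082 without KO 427 and 0.038 without WT 430 and KO 427. That of other NRF2 targets was 0.019 without KO 431 and -0.086 without WT 430.

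No paired analysis was possible because the array numbers are not shared between the genotypes. With 3 arrays a group, the half-width of the 95% interval was 0.19 for the median probe set. Values cover the whole tissue, and probe sets were not compared with each other in level.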

Other observations

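Some genes of the lists around the 10 genes varied by array rather than by genotype; they were chosen after their values were seen. Osgin1, an NRF2 target linked to growth inhibition, read 9.25 in KO 431 and 10.04 to 10.45 on the other arrays. The glutathione transferase gene Gstm3 read 10.05 in WT 430 and 10.41 to 10.84 elsewhere. Me1, the cytosolic malic enzyme that makes NADPH, read 11.59 in WT 426 and 10.48 to 11.12 elsewhere, and thioredoxin Txn1 read 12.77 in KO 427 and 12.22 to 12.52 elsewhere.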
